A study of Mus musculus with 18 samples.

Results

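A set of 9 genes tied to Parkinson disease and other neurodegeneration, Sncb, Mapt, App, Atp13a2, Vps35, Lrrk2, Pink1, Park7 and Uchl1, was followed across the genotypes and treatments of a mouse cerebellum array study. They were taken as every probe set whose platform symbol is any of these names, which gave 9 of 12393 genes and 18 of 22690 probe sets. Testing was limited to probe sets that were above the lowest 40% of values on 3 or more arrays, and 16 of the 18 were, together with the rest of 13092. Each of the 16 was above that limit on all 18 arrays. The other 2, both of App, lay near a log2 value of 4 and above it on 0 arrays. Probe sets of 1 gene share a target and are not replicates.

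The cerebella came from adult male mice aged 80 ± 5 days, each given 1 intraperitoneal injection 6 h before the tissue was taken. The 6 groups were human-ApoD transgenic mice with paraquat, transgenic mice with saline, ApoD KO mice with paraquat, ApoD KO mice with saline, wild-type mice with paraquat and wild-type mice with saline. Paraquat was given at 30 mg/kg in 200 µl of saline, and the saline mice received a like volume. The transgenic mice over-express ApoD, a lipid-binding lipocalin, in neurons, and the KO mice lack it. A group had 9 mice whose RNA was pooled by 3, so that each of its 3 arrays is a pool and the spread is one between pools.

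Parkinson disease is a loss of dopamine neurons of the midbrain, and exposure to the herbicide paraquat, which cycles electrons to oxygen and makes superoxide, is a known risk factor. The genes behind its inherited forms act in a few linked places: vesicle-bound synucleins at the synapse, the endosome and lysosome, and the control of damaged mitochondria. Tau and the amyloid precursor are the proteins that deposit in Alzheimer disease, and variation at the tau gene is also a risk factor for Parkinson disease. The cerebellum, made up mostly of granule neurons with Purkinje neurons and glia, is not where those dopamine neurons lie. Fewer cells of a type and less RNA per cell cannot be told apart in such tissue RNA.

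The targeted gene followed its labels. Apod had log2 values of 9.16 to 9.83 in KO mice with paraquat and 8.22 to 8.50 in KO mice with saline, against 12.53 to 12.76 and 12.38 to 12.54 in the wild-type groups. The transgene is human, and the mouse Apod probe set was not higher in transgenic than in wild-type mice. It differed by -0.41 under paraquat (limma adjusted p = 0.0443), -0.17 under saline (0.488) and -0.29 averaged over both (0.0301). Marker lists of granule neurons, Purkinje neurons, astrocytes and oligodendrocytes held 0 markers below the 40th percentile on any array. The second array of KO mice with paraquat stood apart, with a median log2 value of 6.98 against 7.103 to 7.152 on the others and a mean correlation with the others of 0.971 against at least 0.986. Of the 16 tested probe sets, 13 had their lowest value on that array. On the transgenic arrays the 18S ribosomal RNA control lay between 6.15 and 7.52, against 7.35 to 8.42 on the wild-type and KO arrays. The mean of 4 choroid plexus markers lay between 6.87 and 8.90 on the transgenic arrays, against 9.02 to 9.27 on the wild-type arrays. On the KO arrays it lay between 8.69 and 9.26, where 8.69 came from the array that stood apart. Of these markers 4 of 4 were called lower in transgenic than in wild-type mice on average, beside 18.3% of all probe sets. The astrocyte mean lay between 10.76 and 10.87 on the transgenic arrays, against 10.50 to 10.68 on the wild-type arrays. Of its markers 3 of 8 were called higher, beside 13.5% of all probe sets. In the same comparison 2 of 6 Purkinje and 2 of 7 microglia markers were called lower. Of 6 granule neuron markers 1 was called higher and 1 lower. Of 9 oligodendrocyte and 4 endothelial markers 1 each was called higher. With paraquat 3 of 4 tested endothelial markers were called lower averaged over genotypes, beside 1.95% of all probe sets. So were 2 of 6 granule neuron, 2 of 9 oligodendrocyte and 2 of 7 microglia markers. By genotype, 0 of the 4 endothelial markers were called in transgenic mice, 2 in KO mice and 2 in wild-type mice. The mean of all 6 endothelial markers on the array lay between 6.68 and 7.45 on paraquat arrays, against 7.12 to 7.43 on saline arrays. Up to 3 of those 6 were below the 40th percentile on an array. The pyruvate carboxylase control, 3' minus 5' probe set, was 1.95 with paraquat and 1.82 with saline on the transgenic arrays numbered 3, the lowest of all. Values without the arrays numbered 3, or without the second KO paraquat array, stand beside some of the results they move, but not beside all. The part of the 18S control and of the marker lists was not tested.

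**Figure D1:**
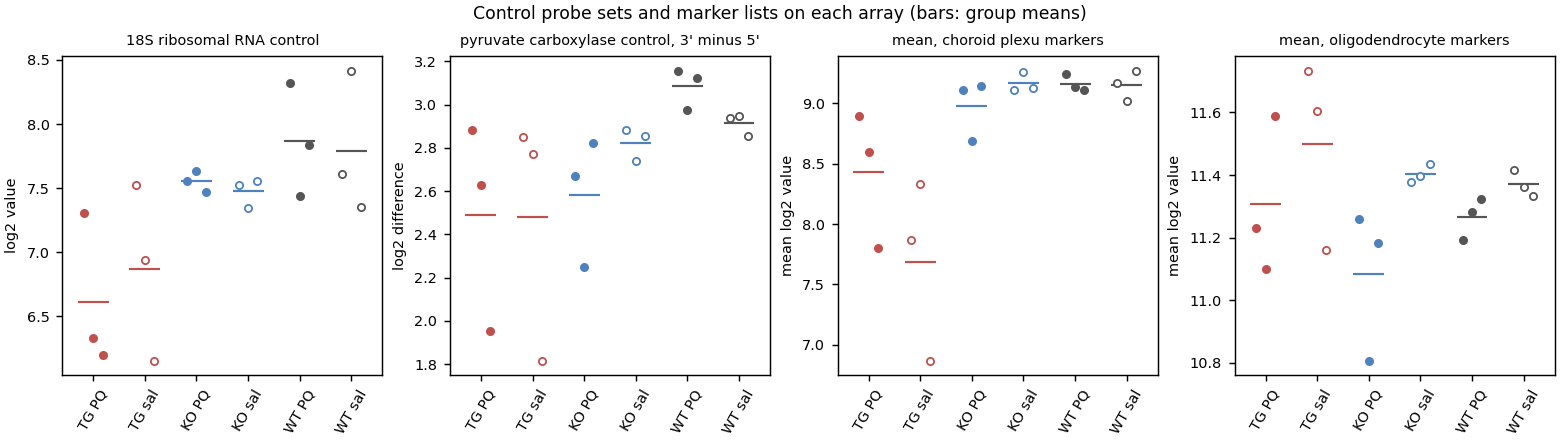
Control probe sets and marker lists on each array, in log2 units, with 1 point per array (filled for paraquat, open for saline), bars at group means and the groups in the order transgenic (TG), KO and wild-type (WT), paraquat (PQ) left of saline (sal). The 18S control and the choroid plexus mean are low on transgenic arrays, though both ranges overlap those of the KO arrays. The oligodendrocyte mean of the second KO paraquat array, 10.81, is the lowest.

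Among the comparisons made, transgenic against wild-type mice gave the most calls, in these genes as over all probe sets. Averaged over both treatments, 6 of the 16 probe sets passed the test, beside 31.8% of all probe sets tested. Sncb, Atp13a2 and Mapt were higher, on 1, 2 and 2 probe sets, and 1 of the 2 Vps35 probe sets was lower. All tests are limma's on the log2 values with Benjamini-Hochberg adjustment over all probe sets of a comparison, a call is an adjusted p under 0.05, and ± marks the SE of a fitted difference. Of all tested probe sets, 13.5% were called higher and 18.3% lower in that comparison. The median difference of the 16 probe sets was 0.11, and that of all tested was -0.02. This average was added after the values had been seen. Its fit takes the 6 transgenic arrays as independent, although same-numbered ones deviated from their group means together (correlations of 0.31, 0.13 and 0.54). Its SEs and p-values, and separations of 6 from 6 arrays, may therefore look firmer than they are. With the replicate number as a block, the 6 calls remained, at limma adjusted p between 0.000732 and 0.0112.

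Sncb encodes beta-synuclein, a small synuclein of presynaptic terminals. Its probe set 1418053_at read 11.09, 11.09 and 11.06 in transgenic mice with paraquat, against 10.50, 10.40 and 10.66 in wild-type mice with paraquat. All transgenic values lay above all wild-type values under paraquat, as in 16.8% of all probe sets tested. Under saline it read 10.73, 11.06 and 11.38 in transgenic mice, against 10.46, 10.48 and 10.79 in wild-type mice. The saline groups overlapped, because the lowest transgenic array lay below the highest wild-type array. The difference was 0.56 ± 0.15 under paraquat (adjusted p = 0.0157) and 0.48 ± 0.15 under saline (adjusted p = 0.0629), and 0.52 ± 0.11 on average (adjusted p = 0.00153), a 1.43-fold higher level.

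Atp13a2 encodes a lysosomal P5-type ATPase that exports polyamines from the lysosome and is mutated in Kufor-Rakeb syndrome, a juvenile parkinsonism. Probe set 1452746_at read 10.38, 10.27 and 10.17 in transgenic mice with paraquat and 10.12, 10.54 and 10.40 in transgenic mice with saline. It read 9.98, 9.79 and 10.07 in wild-type mice with paraquat and 9.91, 9.83 and 9.95 in wild-type mice with saline. The 6 transgenic arrays lay above the 6 wild-type arrays, which held for 6.06% of all probe sets tested. The difference was 0.46 ± 0.12 under saline (adjusted p = 0.0256), 0.32 ± 0.12 under paraquat (adjusted p = 0.0555) and 0.39 ± 0.08 on average (adjusted p = 0.00172).

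The second Atp13a2 probe set, 1452747_at, read 7.48, 7.50 and 7.82 in transgenic mice with paraquat, against 6.956, 6.958 and 6.998 in wild-type mice with paraquat. Under saline it read 7.01, 7.63 and 8.22 in transgenic mice, against 7.16, 7.09 and 7.16 in wild-type mice. The transgenic saline arrays spread over more than a log2 unit, and 1 of them lay below every wild-type saline array. The difference was 0.63 ± 0.19 under paraquat (adjusted p = 0.0277), 0.49 ± 0.19 under saline (adjusted p = 0.127) and 0.56 ± 0.13 on average (adjusted p = 0.00454). Without both transgenic arrays numbered 3 the average was 0.35 (adjusted p = 0.0132). The remaining one, 1428340_s_at, differed by 0.10 ± 0.10 on average (adjusted p = 0.493, 95% interval -0.12 to 0.32). The 3 probe sets did not pass a test of unequal change within the gene (limma's diffSplice F, adjusted p = 0.0776).

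**Figure D2:**
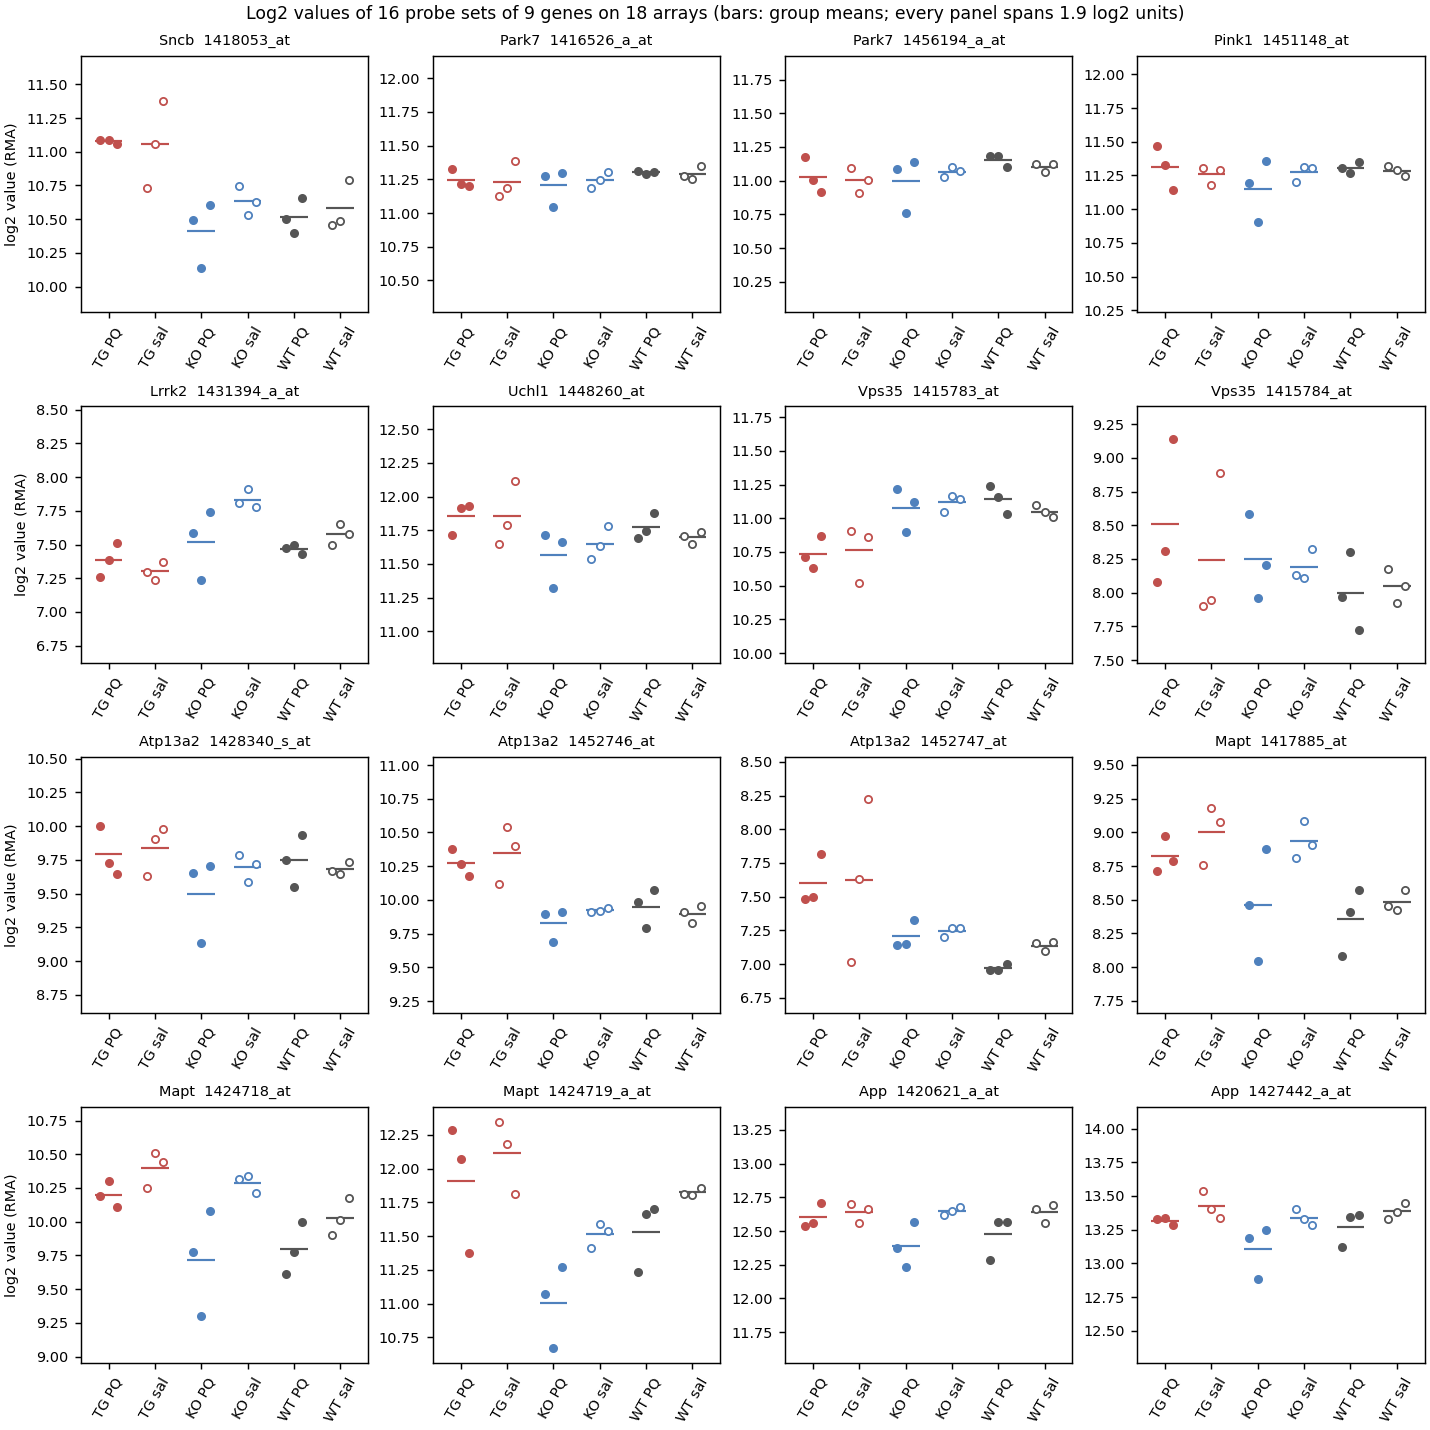
Log2 values of the 16 tested probe sets, 1 panel each, with 1 point per array (filled for paraquat, open for saline), bars at group means and every panel spanning the same number of log2 units. Sncb and Atp13a2 1452746_at are high in transgenic mice (TG), and Mapt 1417885_at is high in transgenic mice and in KO mice with saline. Vps35 1415783_at is low in transgenic mice, and the second KO paraquat array is often the lowest point.

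Sncb and Atp13a2 followed each other over the 18 arrays, with a Pearson correlation of 0.90 between their probe sets of highest mean. These are levels in the same pooled RNA, and the value is a description. Their promoters are shown as the sequences of this pair. RefSeq's table for GRCm38.p6 held promoters, from 250 bases before to 50 bases after the start, of 7 of the 9 genes. Sncb's window is chr13:54766546-54766845 on the minus strand, and Atp13a2's is chr4:140986671-140986970 on the plus strand. Capitals mark the GC box, GGGCGG read on either strand, the motif to which Sp1 family factors bind.
Sncb: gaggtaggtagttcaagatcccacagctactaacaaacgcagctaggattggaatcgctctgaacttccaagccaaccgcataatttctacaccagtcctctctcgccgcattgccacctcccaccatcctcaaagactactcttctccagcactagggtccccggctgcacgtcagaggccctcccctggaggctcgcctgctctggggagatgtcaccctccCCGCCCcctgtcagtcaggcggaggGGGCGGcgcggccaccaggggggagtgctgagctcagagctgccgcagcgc
Atp13a2: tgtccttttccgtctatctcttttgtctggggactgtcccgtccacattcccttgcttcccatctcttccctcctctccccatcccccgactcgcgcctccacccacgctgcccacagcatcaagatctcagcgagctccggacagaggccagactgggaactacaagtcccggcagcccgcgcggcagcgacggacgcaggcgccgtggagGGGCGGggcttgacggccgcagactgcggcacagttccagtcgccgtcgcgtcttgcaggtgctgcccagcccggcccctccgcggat
The Sncb window held 2 GC boxes and the Atp13a2 window held 1. The GC box was in 6 of the 7 member windows, also in those of Park7, Pink1, Lrrk2 and App, which had 0 transgenic calls, so it does not set the pair apart. Of all 32851 promoters of the same length, 35.7% held at least 1. The E-box CACGTG, found in 7.15% of promoters, and the antioxidant response core TGACNNNGC, in 12.4%, were in neither window on either strand. Among the other members, App's window held 2 antioxidant response cores.

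Vps35 encodes the core subunit of retromer, which recycles cargo from endosomes, and a mutation of it causes a dominant Parkinson disease. Its brighter probe set 1415783_at read 10.71, 10.63 and 10.87 in transgenic mice with paraquat and 10.91, 10.52 and 10.86 in transgenic mice with saline. It read 11.24, 11.16 and 11.03 in wild-type mice with paraquat and 11.10, 11.04 and 11.01 in wild-type mice with saline. All 6 transgenic arrays lay below all 6 wild-type arrays, as in 9.14% of probe sets tested. The difference was -0.41 ± 0.12 under paraquat (adjusted p = 0.0216), -0.29 ± 0.12 under saline (adjusted p = 0.137) and -0.35 ± 0.08 on average (adjusted p = 0.0041).

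The other Vps35 probe set, 1415784_at, went the other way and did not pass. It read 8.08, 8.31 and 9.14 in transgenic mice with paraquat and 7.90, 7.94 and 8.89 in transgenic mice with saline. It read 7.97, 8.30 and 7.72 in wild-type mice with paraquat and 8.18, 7.93 and 8.05 in wild-type mice with saline. The transgenic arrays numbered 3 were the highest under both treatments. The average difference was 0.35 ± 0.18 (adjusted p = 0.151), and without those 2 arrays it was 0.03 (adjusted p = 0.861). The test of unequal change of the 2 probe sets passed in transgenic against wild-type mice (diffSplice F, adjusted p = 0.0163), as it did for 22.1% of 3177 genes with several probe sets.

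Mapt encodes tau, the microtubule-associated protein of axons. Probe set 1417885_at read 8.72, 8.97 and 8.79 in transgenic mice with paraquat and 8.75, 9.18 and 9.08 in transgenic mice with saline. It read 8.08, 8.41 and 8.57 in wild-type mice with paraquat and 8.45, 8.43 and 8.57 in wild-type mice with saline. In KO mice it read 8.46, 8.04 and 8.88 with paraquat and 8.81, 9.08 and 8.91 with saline. Those KO saline values lay within the range of transgenic mice with saline, so the higher level was not particular to transgenic mice. The 6 transgenic arrays lay above the 6 wild-type arrays, as in 6.06% of all probe sets, and the average difference was 0.50 ± 0.12 (adjusted p = 0.0053). Probe set 1424718_at differed by 0.39 ± 0.11 (adjusted p = 0.012), a call that ended without both transgenic arrays numbered 2 (0.33, adjusted p = 0.0713). Probe set 1424719_a_at differed by 0.33 ± 0.14 (adjusted p = 0.0802), and without both transgenic arrays numbered 3 by 0.54 (adjusted p = 0.00248). The 3 probe sets did not pass the diffSplice test of unequal change (adjusted p = 0.807).

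The remaining members had 0 calls in transgenic against wild-type mice averaged over treatments. Lrrk2, a large kinase that phosphorylates Rab GTPases, read 7.26, 7.38 and 7.51 with paraquat and 7.30, 7.24 and 7.37 with saline in transgenic mice. In wild-type mice it read 7.47, 7.49 and 7.43 with paraquat and 7.50, 7.65 and 7.58 with saline. The saline groups were apart, with a difference of -0.27 (adjusted p = 0.157), and the paraquat groups overlapped, with a difference of -0.08. On average Lrrk2 differed by -0.18 ± 0.08 from wild-type mice (adjusted p = 0.106). Uchl1, a neuronal ubiquitin hydrolase, differed by 0.12 ± 0.09 (adjusted p = 0.34). Without both transgenic arrays numbered 3 the Uchl1 difference was 0.03 (adjusted p = 0.821), and without both numbered 1 it was 0.20 (adjusted p = 0.102). The largest difference of Park7, App and Pink1, in size, was -0.11 ± 0.08 at the Park7 probe set 1456194_a_at (adjusted p = 0.269). Pink1, the kinase that marks damaged mitochondria, differed by -0.01 ± 0.08, with a 95% interval of -0.18 to 0.16.

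**Figure D3:**
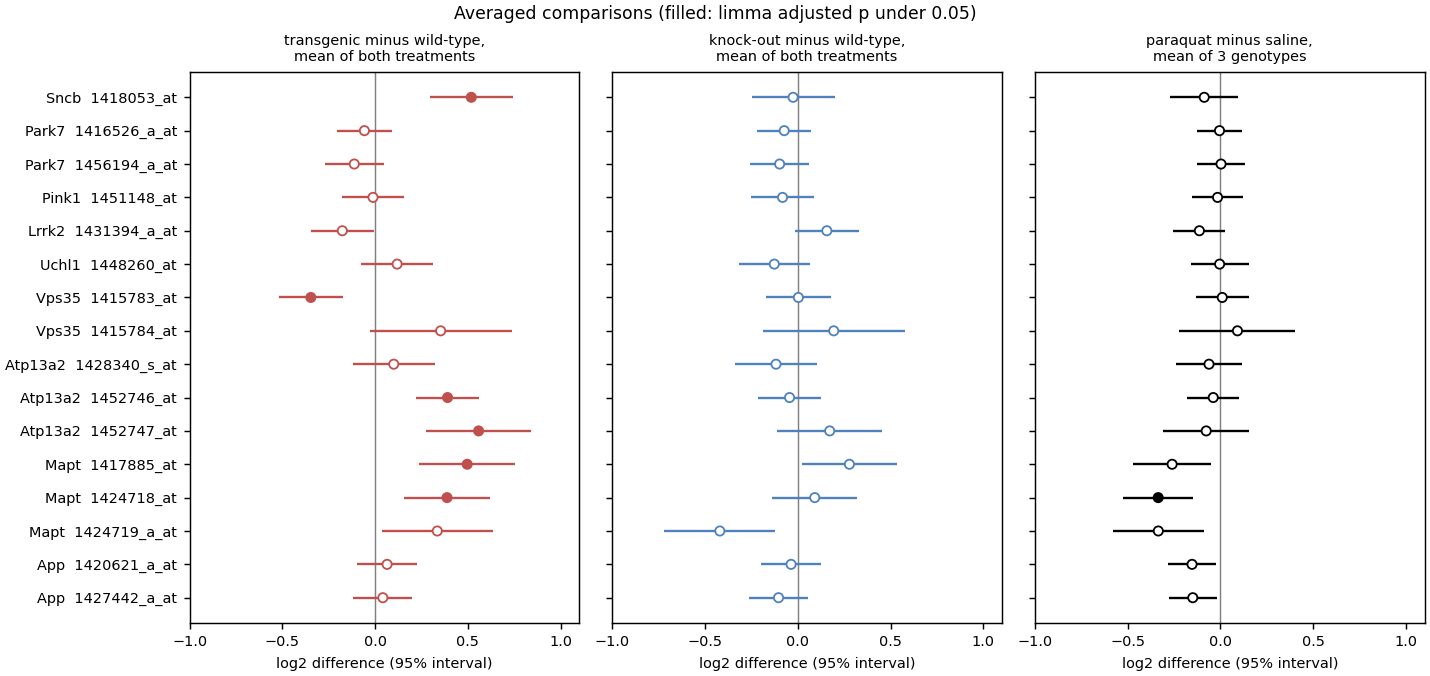
Log2 differences with 95% intervals of the 16 tested probe sets in 3 averaged comparisons: transgenic minus wild-type, KO minus wild-type, and paraquat minus saline, with filled points where limma's adjusted p was under 0.05. Filled are 6 points in the first panel, 0 in the second and 1, Mapt 1424718_at, in the third.

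Treatment by treatment, transgenic against wild-type mice gave 3 calls among the 16 probe sets under paraquat, beside 19.5% of all tested, and 1 under saline, beside 6.54%. The paraquat calls were Sncb, Vps35 1415783_at and Atp13a2 1452747_at, and the saline call was Atp13a2 1452746_at. With fewer arrays the differences stayed about as large, but calls were lost. Without the first or the second wild-type paraquat array, 0 of the 3 paraquat calls were left, with Sncb at 0.55 and 0.50 (adjusted p = 0.0541 and 0.0705), Vps35 at -0.36 and -0.40 and Atp13a2 1452747_at at 0.62 in both. Without any 1 of the 3 wild-type saline arrays, or without the transgenic saline array numbered 2 or 3, the saline call was gone, with differences between 0.36 and 0.48. Without the second KO paraquat array, which enters only through the shared estimate of spread, there were 6 and 5 calls, beside 32.6% and 18.1% of all probe sets.

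Few of these probe sets were called for paraquat at 6 h, as over all probe sets. In transgenic, KO and wild-type mice taken alone, 0 of the 16 probe sets were called for paraquat against saline, beside 0%, 1.3% and 1.33% of all probe sets tested. At an unadjusted p under 0.05 the member counts were 0, 6 and 0, beside 1.15%, 15.5% and 8.49% of all probe sets. Averaged over genotypes 1 probe set was called, Mapt 1424718_at, beside 3.48% of all and 1.95% called lower. Fkbp5, a glucocorticoid target used as a check of the treatment, differed by 0.69 in transgenic, 2.42 in KO and 2.50 in wild-type mice at 1416125_at. It passed in the KO and wild-type mice but not in transgenic mice. Its effect in transgenic mice differed from that in wild-type mice by -1.81 (adjusted p = 0.0455). The third transgenic paraquat array read 7.86, within the transgenic saline range of 7.74 to 8.27. The 0 member calls in transgenic mice thus stand beside a treatment check that did not pass there.

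Mapt had the largest paraquat differences in size on average, in KO and in wild-type mice, while in transgenic mice Vps35 1415784_at had the largest, 0.27 (adjusted p = 1). Probe set 1424718_at read 10.19, 10.30 and 10.11 with paraquat and 10.25, 10.51 and 10.44 with saline in transgenic mice. It read 9.78, 9.30 and 10.08 with paraquat and 10.31, 10.34 and 10.22 with saline in KO mice. In wild-type mice it read 9.612, 9.777 and 9.998 with paraquat and 9.90, 10.01 and 10.18 with saline. The groups were apart in KO mice, as in 16.6% of probe sets lower there, and overlapped in the others. The differences were -0.20 ± 0.15 in transgenic (adjusted p = 1), -0.57 ± 0.15 in KO (adjusted p = 0.083) and -0.23 ± 0.15 in wild-type mice (adjusted p = 0.855), and -0.34 ± 0.09 on average (adjusted p = 0.0432). The average call was lost when any 1 of 14 of the 18 arrays was left out, with the difference then between -0.36 and -0.31. The other Mapt probe sets differed on average by -0.34 ± 0.12 (1424719_a_at, adjusted p = 0.14) and -0.26 ± 0.10 (1417885_at, adjusted p = 0.192).

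The KO differences rest in part on the array that stands apart. Without the second KO paraquat array, Mapt 1424718_at differed by -0.36 in KO mice (adjusted p = 0.273), against -0.57 with it, and by -0.27 on average (adjusted p = 0.0301). The paraquat effect in KO mice did not pass a test of difference from that in wild-type mice for any of the 16 probe sets, nor did that in transgenic mice, beside 0% and 0.137% of all probe sets. The smallest adjusted p was 0.922 for KO and 1 for transgenic mice. At an unadjusted p under 0.05, 0 of the 16 passed in either, beside 1.45% and 3.83% of all probe sets.

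App encodes the amyloid precursor, a membrane protein cut by secretases. Its probe sets 1420621_a_at and 1427442_a_at differed by -0.15 ± 0.06 each with paraquat on average (adjusted p = 0.228 and 0.239). The 1427442_a_at values were 13.33, 13.34 and 13.29 with paraquat, against 13.53, 13.40 and 13.33 with saline, in transgenic mice. They were 13.19, 12.89 and 13.25 with paraquat in KO mice, against 13.40, 13.33 and 13.29 with saline. In wild-type mice they were 13.12, 13.34 and 13.36 with paraquat, against 13.33, 13.38 and 13.45 with saline. The groups were apart in KO mice, as in 16.6% of all probe sets lower there and in 6 of the 16 probe sets of these genes, and overlapped in the other genotypes. The lowest KO value came from the array that stands apart.

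Park7 (DJ-1, a sensor of oxidative stress), Pink1 and Uchl1 differed with paraquat on average by between -0.02 and 0.003, and their 95% intervals lay between -0.16 and 0.15. The Pink1 probe set 1451148_at read 11.47, 11.32 and 11.14 in transgenic, 11.20, 10.90 and 11.36 in KO and 11.30, 11.27 and 11.35 in wild-type mice with paraquat. With saline it read 11.30, 11.18 and 11.29 in transgenic, 11.20, 11.31 and 11.31 in KO and 11.32, 11.29 and 11.25 in wild-type mice. Apart from the KO array already named, the Pink1 values stayed within a narrow band. Lrrk2 differed by -0.11 ± 0.07 with paraquat on average (adjusted p = 0.443) and the Vps35 probe sets by 0.01 ± 0.07 (1415783_at, adjusted p = 0.968) and 0.09 ± 0.15 (1415784_at, adjusted p = 0.828). Sncb and the 3 Atp13a2 probe sets differed with paraquat on average by between -0.09 and -0.04, with adjusted p between 0.691 and 0.836.

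**Figure D4:**
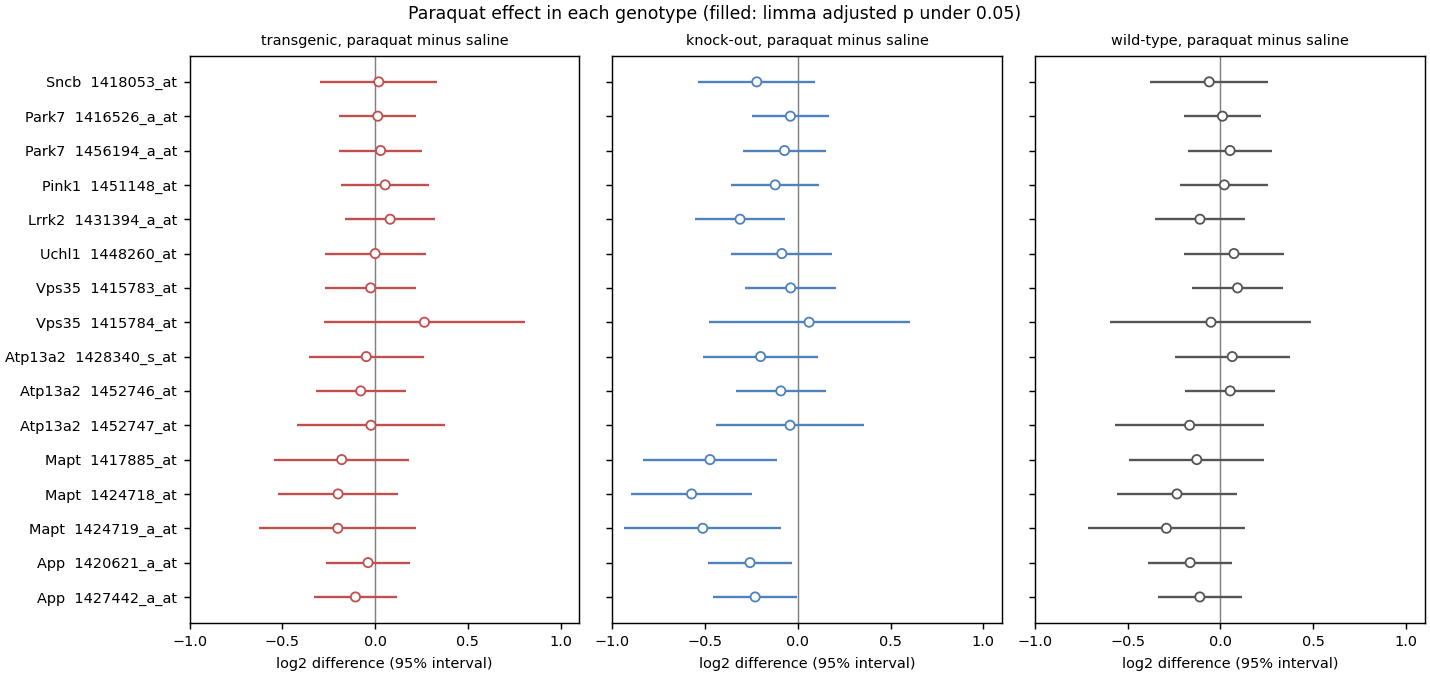
Paraquat minus saline, as a log2 difference with its 95% interval, for the 16 tested probe sets in transgenic, KO and wild-type mice. No point is filled, since 0 reached an adjusted p under 0.05, and the lowest points are those of Mapt in KO mice, -0.57 at 1424718_at.

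KO against wild-type mice gave 0 calls among the 16 probe sets under paraquat, under saline and on average, beside 0.00764%, 0.0153% and 0.0993% of all probe sets tested. Unadjusted p-values under 0.05 numbered 1, 2 and 2, beside 12%, 2.02% and 9.58% of all probe sets. The Lrrk2 probe set 1431394_a_at read 7.81, 7.91 and 7.78 in KO mice with saline, against 7.50, 7.65 and 7.58 in wild-type mice with saline. With paraquat it read 7.59, 7.24 and 7.74 in KO mice, against 7.47, 7.49 and 7.43 in wild-type mice. The saline groups were apart. The paraquat groups overlapped only through the second KO array, at 7.24, the array that stands apart. The average difference was 0.16 ± 0.08 (adjusted p = 0.559). KO saline arrays lay above all wild-type saline arrays in 12.3% of all probe sets.

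The Mapt probe sets differed in sign in KO mice, and none of them passed the test. Probe set 1424719_a_at read 11.07, 10.67 and 11.27 with paraquat and 11.41, 11.59 and 11.54 with saline in KO mice. It read 11.23, 11.66 and 11.70 with paraquat and 11.81, 11.80 and 11.86 with saline in wild-type mice. Its average KO difference was -0.42 ± 0.14 (adjusted p = 0.353), while 1417885_at differed by 0.28 ± 0.12 (adjusted p = 0.507).

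Within an array, 1417885_at minus 1424719_a_at lay between -2.63 and -2.39 in the 6 KO arrays, against -3.38 to -3.13 in the 6 wild-type arrays. The difference 1424718_at minus 1424719_a_at lay between -1.37 and -1.10 in KO, against -1.91 to -1.62 in wild-type mice. Neither range overlapped, which held for 4.41% of 7195 pairs of probe sets of 1 gene. The array that stands apart gave -1.37 for the second pair, the KO value nearest to the wild-type range. The adjusted test of unequal change did not pass (diffSplice, adjusted p = 0.151 for 1424719_a_at and 0.204 for the gene, beside 0.409% of genes called). The transgenic arrays spread more, with 1417885_at minus 1424719_a_at between -3.59 and -2.59, and same-numbered arrays of both treatments lay close together. Which exons the 3 probe sets read was not analysed here.

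**Figure D5:**
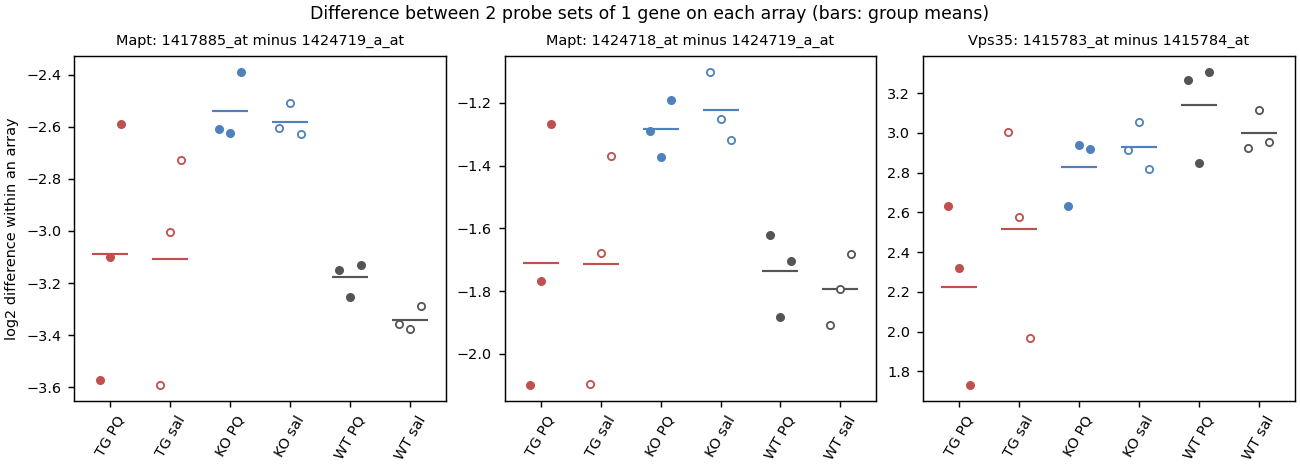
Difference between the log2 values of 2 probe sets of 1 gene on each array, for 2 pairs of Mapt and for the pair of Vps35, with 1 point per array and bars at group means. The KO arrays lie above the wild-type arrays for both Mapt pairs, and the transgenic arrays spread from 1.729 to 3.003 for Vps35.

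By Pearson correlation over the 18 arrays, the genes most like each member were named from its probe set of highest mean. For Sncb these were Clstn3, Pcbp3 and Retreg2, at 0.97, 0.97 and 0.96. For Atp13a2 they were Cltb, Ptov1 and Fbxw8, at 0.96, 0.95 and 0.95. For Vps35 they were Osbpl1a, Zfp931 and Dmac2l, at 0.96, 0.95 and 0.95. For Mapt they were Glg1, Ptpn1 and Nelfa, at 0.96, 0.96 and 0.94. For App they were Larp1, Kcnj10 and Dip2b, each at 0.94, and without the second KO paraquat array at 0.87, 0.86 and 0.88. For Lrrk2 they were Mdn1, Sh3d19 and Pax6, at 0.91, 0.90 and 0.89. For Uchl1 they were Ppif, Praf2 and Mrpl4, at 0.92, 0.91 and 0.90. For Park7 they were Aldh2, Cyba and Psme1, at 0.89, 0.88 and 0.88, and for Pink1 they were Ctnnbl1, Ctsz and Psmc3, at 0.93, 0.89 and 0.87. Without that array the Pink1 values were 0.83, 0.74 and 0.65, the Park7 values 0.81, 0.88 and 0.80, and the Uchl1 values 0.87 each. The points share libraries and pools, so the values describe these arrays.

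Genes around the members were read from 10 lists with 135 symbols, of which 98 genes with 203 probe sets were tested. In transgenic against wild-type mice on average 66 of the 203 were called, 36 higher and 30 lower, near the 31.8% of all probe sets. Under paraquat it was 40, with 21 higher, beside 19.5% of all, and under saline 15, with 9 higher, beside 6.54%. In KO against wild-type mice on average it was 1, beside 0.0993% of all. This was Otub1 1417705_at, a deubiquitinase, lower by -0.83 ± 0.11 (adjusted p = 0.00579). The same probe set was lower in transgenic than in wild-type mice under saline, by -0.63 ± 0.16 (adjusted p = 0.0269). The lower level was therefore not particular to KO mice. For paraquat against saline 0 were called in transgenic and KO mice and 1 in wild-type mice, beside 0%, 1.3% and 1.33% of all. On average over genotypes 2 were called, beside 3.48%. The list counts that follow stand beside 13.5% of all probe sets called higher and 18.3% lower in transgenic mice on average.

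The relatives of App and of the synucleins had 6 of 8 probe sets called higher in transgenic mice on average, beside 13.5% of all. The 8 cover 3 genes, and 5 of the 6 calls are probe sets of 1 gene, Aplp2, an App relative, led by 1.00 ± 0.13 at 1421889_a_at (adjusted p = 4.73e-05). Bace1, the beta-secretase that makes the first cut of App towards amyloid, was higher by 0.84 ± 0.07 at 1450384_at (adjusted p = 1.69e-06), and 2 of its 3 other probe sets had the same sign. Adam17, another alpha-secretase, was higher by 0.47 ± 0.10 at 1421859_at (adjusted p = 0.00181), while its other probe set differed by -0.11 ± 0.10 (adjusted p = 0.387). Adam10, the main alpha-secretase of neurons, was lower by -0.48 ± 0.11 at 1428103_at (adjusted p = 0.00234), and its other 2 probe sets differed by 0.13 and -0.04 (adjusted p = 0.6 and 0.874). Of 29 probe sets of App cleavage and its adaptors, 7 were higher and 1 was lower, beside 13.5% and 18.3% of all.

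Of 31 probe sets of retromer and endosomal sorting, 4 were higher and 9 lower in transgenic mice on average, beside 13.5% and 18.3% of all. Vps26b, a retromer subunit, was higher by 0.50 ± 0.09 (adjusted p = 0.000433) and Sort1, a sorting receptor, by 0.72 ± 0.13 (adjusted p = 0.000779). Washc2, of the WASH complex that retromer recruits, was lower by -0.38 ± 0.07 at 1456056_a_at (adjusted p = 0.00108) but higher by 0.24 ± 0.08 at 1433589_at (adjusted p = 0.0282). Under paraquat Vps29, another retromer subunit, was lower by -0.51 ± 0.12 (adjusted p = 0.00906).

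Of 53 probe sets of microtubule-associated proteins and tau kinases, 10 were higher and 3 lower, beside 13.5% and 18.3% of all. Map4, which stabilises microtubules, was higher by 0.69 ± 0.10 (adjusted p = 0.000145) and Mapre3, an end-binding protein, by 0.89 ± 0.16 (adjusted p = 0.000577). Mark2, a kinase of tau, was higher by 0.40 ± 0.07 (adjusted p = 0.000563). The P5 ATPases had 1 of 3 called, Atp13a3 1434513_at at -0.57 ± 0.15 (adjusted p = 0.00788), and the other Atp13a3 probe set differed by 0.22 ± 0.10 (adjusted p = 0.0988).

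Of 40 probe sets of mitochondrial quality control, 3 were higher and 5 lower, beside 13.5% and 18.3% of all. Immt, a scaffold of cristae junctions, was higher by 0.63 ± 0.12 (adjusted p = 0.000779) and Dnm1l, the fission GTPase, lower by -0.40 ± 0.09 at 1428086_at (adjusted p = 0.00256), where 1 of its other 2 probe sets had the same sign. Ubiquitin hydrolases and ubiquitin genes had 2 of 14 higher and 5 lower, among them Bap1 at 0.48 ± 0.07 (adjusted p = 0.000158). Usp14 was called both ways, lower by -0.50 ± 0.09 at 1455829_at (adjusted p = 0.000762) and higher by 0.35 ± 0.08 at 1437714_x_at (adjusted p = 0.00353). The relatives of Lrrk2 and its Rab substrates had 4 of 13 higher and 1 lower, Rab8b at -0.53 ± 0.12 (adjusted p = 0.00363). Of 6 probe sets of other familial parkinsonism genes 0 were higher and 4 lower, of which 3 are of 1 gene, Atp6ap2. The remaining one was Gigyf2 1451397_at at -0.48 ± 0.10 (adjusted p = 0.00176), whose other probe set differed by 0.13 ± 0.08 (adjusted p = 0.206).

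With paraquat, Ddc, which makes dopamine from its precursor, rose by 0.71 ± 0.15 in wild-type mice (adjusted p = 0.0228) and by 0.41 ± 0.09 averaged over genotypes (adjusted p = 0.0131). It was not called with paraquat in KO mice or in transgenic mice, so the average does not show a rise in each genotype. Adam10 fell by 0.32 on average (SE 0.09, adjusted p = 0.0471). In transgenic against wild-type mice, Ddc was lower by -0.85 ± 0.15 under paraquat (adjusted p = 0.00151) and by -0.47 ± 0.11 averaged over treatments (adjusted p = 0.00338).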

How the data were processed

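Gene expression in mouse cerebellum was measured on 18 Affymetrix 3' arrays, 3 per group, each of pooled RNA of 3 mice, and groups came from the titles. Titles that do not name paraquat were read as saline, following the protocol. The deposited values are log2, 1 per probe set and array, from 3.13 to 14.91, and per the submitters' processing notes the authors used RMA, without a version. Which arrays were normalised together is not given in the sources used here, and scanner files were not used here. No read depth exists for arrays, and their number limits the precision: the 95% interval of a log2 difference reached 0.29 to each side for the median probe set in a comparison of 2 groups.

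Gene symbols are those of the platform annotation and may be outdated. Only the 20380 probe sets with exactly 1 symbol entered the tests. Another 691 had several symbols and 1555 had none. The build of the annotation is not given in the sources used here, so no gene positions are printed, and promoters are RefSeq's. All 18 arrays were fitted together as 6 groups with limma 3.58.1 under R 4.3.3 (lmFit, eBayes), with 12 residual degrees of freedom, in 10 comparisons and 2 averages over treatments added later. The calls and intervals come from that fit, and the script was tested on simulated data. Exact permutation of 3 against 3 arrays cannot go below a p of 0.1. The named genes are all member probe sets, Apod and Fkbp5 as checks, up to 3 called probe sets per list and comparison by smallest p, and the 3 genes most like each member. Alternatives changed the filter, the normalisation, the probe sets, the block, the arrays in the fit, array weights and the variance prior, and left out each array. The members and lists were chosen with earlier results of these data known.

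The labels number arrays 1 to 3 in each group. Deviations of same-numbered arrays from their group means correlated at over 0.1 in every pair only for transgenic mice with paraquat and saline (0.31, 0.13 and 0.54), and nothing in the labels ties the numbers to a shared batch or day. The dap spike-in control read 12.45 and 12.08 on the transgenic arrays numbered 1, with paraquat and with saline, and at most 11.15 on every other array.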

Additional observations from a re-analysis of the deposited data

How the results depend on the processing

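The number of member probe sets called depended most on array weights, which ran from 0.0562 for the second KO paraquat array to 8.44 for the second transgenic paraquat array and whose estimation stopped before it converged. With them the member calls for paraquat against saline were 1 in transgenic, 5 in KO and 0 in wild-type mice and 5 on average, beside 19.5%, 26.2%, 10.3% and 30.6% of all probe sets. In transgenic against wild-type mice they were 10 under saline, 8 under paraquat and 10 on average, beside 56.1%, 54.9% and 66.6% of all, in KO against wild-type mice likewise 3, 1 and 4, beside 4.74%, 2.34% and 10.8%, and for the difference of the paraquat effect in transgenic mice 1, beside 13.2%. Quantile normalisation again gave 5 calls under saline and 6 under paraquat in transgenic against wild-type mice, beside 12.8% and 24.6% of all. A fit of only the groups compared gave 0 under saline and 5 under paraquat there, and 2, both of Mapt, in KO against wild-type mice under saline. The calls over all probe sets moved with the settings too. Over every setting except single arrays left out, 529 to 7343 were called in transgenic against wild-type mice under saline. Likewise it was 1575 to 7191 under paraquat, 2604 to 8713 on average, and 1 to 620 in KO against wild-type mice under saline. The average paraquat call of Mapt was gone (0 calls) without the filter on low values and with 1 probe set per gene, and 1 probe set per gene gave 3 calls, with fewer probe sets tested, in transgenic against wild-type mice on average. The replicate block moved 1 count by over 1.5 times, transgenic against wild-type mice under saline, with 2 calls against 1 without it (Atp13a2 and Sncb), and left 0 calls for paraquat in transgenic mice, where the pairs deviate together, also with the transgenic arrays alone.

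Leaving out 1 array at a time gave 0 to 0 calls for paraquat in transgenic mice, 0 to 2 in KO mice (2, both of Mapt, without the third KO paraquat array), 0 to 0 in wild-type mice and 0 to 2 on average. The share of all probe sets called then ran over 0% to 0.0535%, 0.374% to 3.73%, 0.489% to 2.89% and 2.08% to 5.27%. It gave 0 to 5 in transgenic against wild-type mice under saline, 0 to 6 under paraquat and 6 to 7 on average, while the share of all probe sets called ran over 1.06% to 18.1%, 10.3% to 32.6% and 24.3% to 43.9%, and 0 to 0 in KO against wild-type mice and for both differences of effect. Leaving out both transgenic arrays of 1 number, chosen after seeing the data, gave 7, 5 and 7 calls on average for numbers 1, 2 and 3. Of single values, 5014 kept their side of the threshold, 79 passed it only under the alternative, 31 no longer passed, and 0 changed the direction of a call. Another quantile normalisation moved the median of all probe sets by 0.10 for the difference of the paraquat effect in KO mice, by 0.10 in KO against wild-type mice under paraquat and by less elsewhere. In KO against wild-type mice under paraquat 10 of 16 member differences were then above 0, against 4 as deposited, and none was called either way.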
